A study of Mus musculus with 14 samples.

Results

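Genes that mark or regulate the endothelium of the liver sinusoids were followed in mouse liver RNA as a set of 10 members: *Stab1*, *Stab2*, *Clec4g*, *Lyve1*, *Oit3*, *Kdr*, *Fcgr2b*, *Cd34*, *Plvap* and *Eng*. Their rows were taken by gene symbol from the 25212 genes of the count table, and the members were chosen with earlier results of these data known. Each symbol matched 1 gene, and all 10 were among the 14252 genes that passed the filter on low counts and were tested. All 14 livers came from male C57BL/6 mice fed a high-fat diet (HFD) from 6 weeks of age for 12 weeks before they were assigned to groups, and kept on it afterwards. The 5 mice with diet-induced obesity (DIO) had no surgery. In 4 mice the common bile duct was tied and the gallbladder was joined to the ileum (GB-IL), and 5 mice underwent Roux-en-Y gastric bypass (RYGB). Livers of the operated mice are labelled 8 weeks after surgery, and those of the DIO mice carry the same time. Because the DIO mice had no operation, an effect of surgery as such and an effect of the bile or gut rearrangement cannot be told apart here.

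The sinusoidal endothelium of a healthy liver is perforated by open pores (fenestrae), rests on almost no basement membrane and removes waste molecules from blood through scavenger receptors. When it loses its pores and takes on features of a continuous capillary, such as CD34 and a basement membrane, the change is called capillarization, and it accompanies chronic liver injury and fibrosis. The stabilins, *Lyve1*, *Clec4g* and *Fcgr2b* encode receptors of the specialized cell, *Kdr* and *Eng* encode receptors for signals that maintain vessels, and *Cd34* and *Plvap* are genes used to follow the change towards ordinary capillaries.

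Library totals lay between 18223135 and 28656631 counts, and values are given as CPM, the depth-normalized count, on totals scaled by TMM factors of edgeR. In a principal component analysis of all tested genes, GB-IL livers 1 and 2 lay far from the DIO livers on the first component (107 and 86.2, against -36.4 to -16.7 in DIO), whereas GB-IL 4 lay at -28.98, inside the DIO range. Among the members, GB-IL 1 and RYGB 5 stood apart: GB-IL 1 was the highest of the 14 livers for 5 members and RYGB 5 for 4, beside 19.9% and 8.80% of all tested genes. Results that rest on these livers are therefore given with and without them. Both surgical groups were compared with the same DIO livers. In whole liver, fewer cells of a type and less RNA per cell cannot be told apart.

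All 10 members had reads in every liver, so none of the genes that define the label was absent. Expressed per kilobase of exon, the mean level in DIO livers was highest for *Plvap*, at 25.8 ± 4.05 CPM per kb (SD, n = 5), followed by *Clec4g* at 24.1 ± 4.85 and *Eng* at 18.3 ± 3.66. *Oit3* had 10.2 ± 3.04 CPM per kb, and *Stab2*, *Fcgr2b*, *Stab1*, *Kdr* and *Lyve1* lay between 6.14 and 3.12. *Cd34* was last at 0.166 ± 0.00593 CPM per kb. Neighbours in this order overlapped in their ranges, except that every DIO liver had more *Eng* than *Oit3* and more *Lyve1* than *Cd34* per kilobase. *Plvap* was also first and *Cd34* last in both surgical groups, but in GB-IL the ranges of *Kdr* and *Cd34*, the lowest pair, overlapped.

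Promoter sequence, shown for the member that passed the test (*Cd34*) and for a scavenger-type lectin that did not (*Clec4g*), was available for 7 of the 10 members in RefSeq on build GRCm38.p6. The 250 bases before the annotated start site are printed 5′ to 3′ on the strand of the gene. Capitals mark AGGAAG, the core bound by ETS factors such as ERG, or its reverse complement CTTCCT.
*Cd34*, chr1:194938571-194938820, plus strand: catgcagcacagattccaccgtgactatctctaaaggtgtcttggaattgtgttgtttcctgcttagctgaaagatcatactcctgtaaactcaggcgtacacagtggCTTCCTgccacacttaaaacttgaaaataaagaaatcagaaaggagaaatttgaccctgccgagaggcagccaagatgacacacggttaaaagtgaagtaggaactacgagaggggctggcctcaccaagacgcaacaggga
*Clec4g*, chr8:3720652-3720901, minus strand: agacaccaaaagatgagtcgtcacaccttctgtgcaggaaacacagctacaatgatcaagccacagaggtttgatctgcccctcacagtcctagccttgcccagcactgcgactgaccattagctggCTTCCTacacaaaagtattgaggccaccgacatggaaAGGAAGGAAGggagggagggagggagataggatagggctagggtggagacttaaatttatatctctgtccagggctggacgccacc
*Cd34* held 1 match, whose first base lies 142 bases before the start site, and *Clec4g* held 3, of which the pair at 86 and 82 bases before it overlap. On both strands the motif was found in 5 of the 7 member promoters (*Cd34*, *Clec4g*, *Eng*, *Stab1* and *Stab2*) and in 29.5% of the 32851 promoters of the same length. The GATA core AGATAA, or TTATCT, was in 0 of the 7 and in 9.99% of all promoters. The match is present in a promoter whose gene passed the test and in one whose gene did not.

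**Figure D1:**
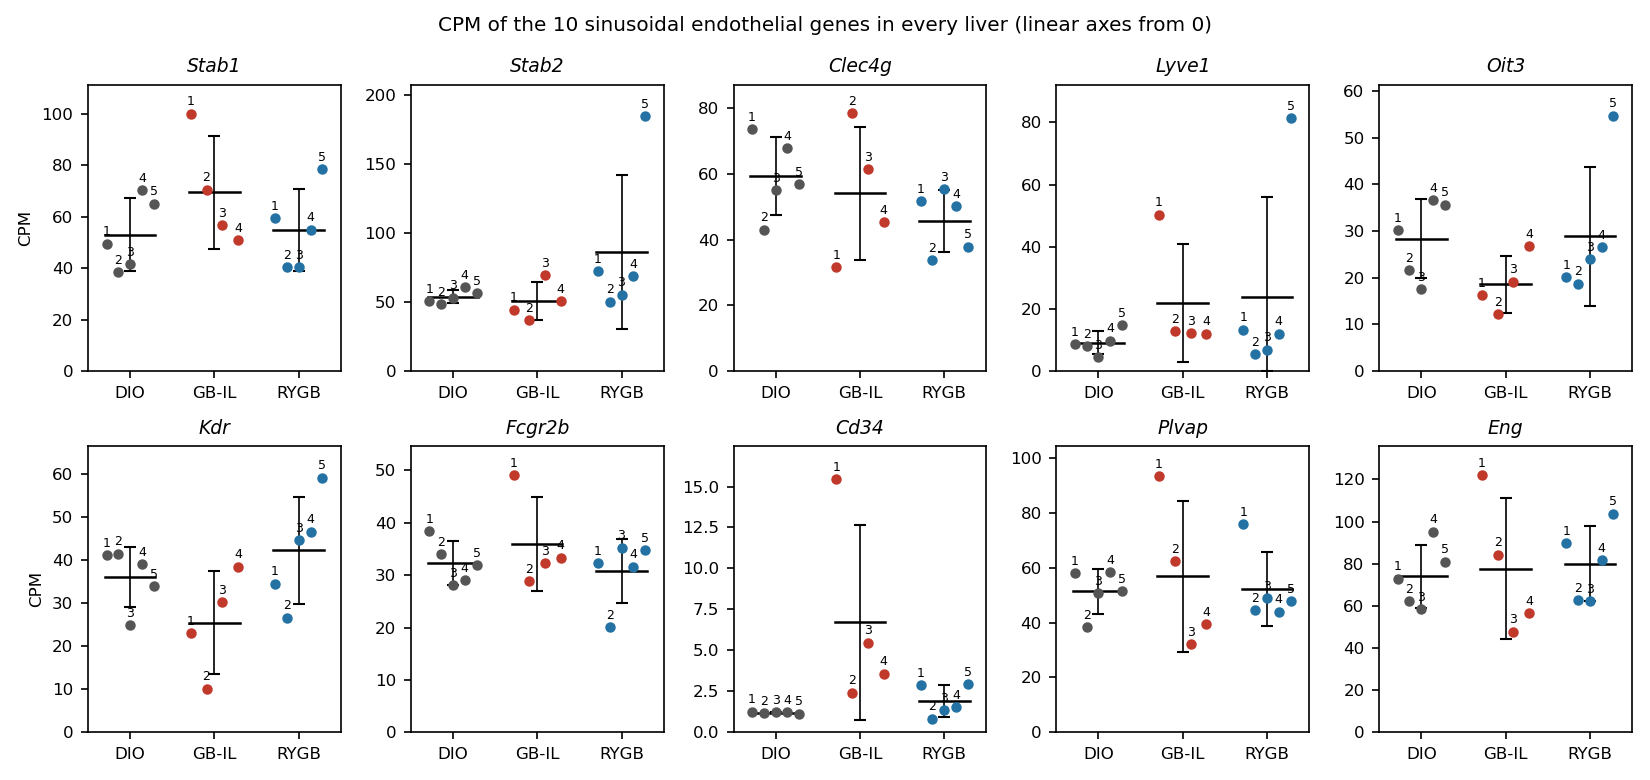
CPM of each member in every liver on linear axes from 0, with the number of the liver beside each point, and the group mean (line) and SD (error bars; a bar that would fall below 0 stops at 0). The 4 GB-IL livers lie above all 5 DIO livers for *Cd34*, and for the other members the groups overlap.

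GB-IL mice differed from DIO mice in 1 of the 10 members: *Cd34* rose 5.53-fold, and it was above every DIO liver in 4 of 4 GB-IL livers. None of the 10 fell in the edgeR quasi-likelihood fit, in DESeq2 or in voom with quality weights, and at an unadjusted p under 0.05 there were 0 lower members, beside 6.43% of all genes. DESeq2 gave no adjusted p for *Lyve1* in any comparison, so its counts cover the other 9 members. Of all tested genes, 3.15% were called higher and 0.112% lower at a false discovery rate (FDR) of 0.05, a background against which 1 member of 10 says little about the set as a whole. The median fitted log2 fold change of the members was 0.11, near the 0.039 of all tested genes, and 6 of the 10 lay above 0. Without GB-IL 1 the median was -0.047 and 4 of the 10 lay above 0.

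*Cd34*, a sialomucin of capillary endothelium that is also carried by haematopoietic progenitors and some fibroblasts, lies on chromosome 1 at 194938819-194961279 of GRCm38 (plus strand). DIO livers 1 to 5 had 1.26, 1.18, 1.22, 1.24 and 1.15 CPM. GB-IL livers 1 to 4 had 15.4, 2.43, 5.47 and 3.58 CPM, and RYGB livers 1 to 5 had 2.90, 0.838, 1.34, 1.53 and 2.94 CPM. The DIO livers were nearly equal and GB-IL 1 was far above all others. RYGB 1, 3, 4 and 5 lay above every DIO liver, and RYGB 2 lay below them. The mean was 1.21 ± 0.0432 CPM in DIO (SD, n = 5), 6.73 ± 5.94 in GB-IL (n = 4) and 1.91 ± 0.957 in RYGB (n = 5). As compared with DIO, GB-IL livers had a log2 fold change of 2.47 ± 0.491 (SE), with a 95% interval from 1.42 to 3.51 and a Benjamini-Hochberg adjusted p of 0.0278 from the edgeR quasi-likelihood fit. Every GB-IL liver lay above every DIO liver for 2.67% of all tested genes.

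The *Cd34* reads were few, so counting error matters. DIO livers had 22 to 24 reads each, and the upper end of their exact Poisson 95% intervals reached 1.72 to 1.88 CPM. The lower end was 13.7 CPM for GB-IL 1, 4.57 for GB-IL 3 and 2.90 for GB-IL 4. All of these lie above the DIO intervals. The interval of GB-IL 2, which rests on 43 reads, began at 1.76 CPM and overlapped those of DIO 1, 3 and 4. The intervals of RYGB 2, 3 and 4 also overlapped those of DIO livers. These intervals cover counting error only, and the DIO values lay closer together than their intervals are wide.

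The *Cd34* call depended on the livers. With GB-IL 1 left out, the GB-IL mean was 3.83 ± 1.54 CPM (SD, n = 3), and the log2 fold change was 1.65 with a Benjamini-Hochberg adjusted p of 0.0709 from the edgeR quasi-likelihood fit. Without GB-IL 2 the same test gave 2.73 and an adjusted p of 0.0581. Leaving out any 1 DIO liver left the log2 fold change between 2.45 and 2.48, with Benjamini-Hochberg adjusted p-values from 0.0621 to 0.0942 by edgeR, and the number of genes called over the whole table fell from 465 to 0 in each of those 5 fits. Over the 22 alternatives the *Cd34* log2 fold change stayed between 1.65 and 2.73, and 12 of them kept it past the FDR.

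*Cd34* was also read against genes shared by all endothelium. As a percentage of the summed counts of 22 pan-endothelial genes (*Pecam1*, *Cdh5*, *Tie1* and others), it was 0.372 to 0.522 in DIO, 1.03 to 3.06 in GB-IL and 0.360 to 0.693 in RYGB. On this scale every GB-IL liver was above all DIO and RYGB livers, whereas in CPM GB-IL 2 lay below RYGB 1 and 5. The summed level of these genes was 234 to 317 CPM in DIO and 235 to 504 CPM in GB-IL. The sums of GB-IL 2, 3 and 4, at 234.9, 248.7 and 295 CPM, lay within the DIO range. Single genes differed more than the sum: GB-IL 2 was the lowest of all livers for 10 of the 22 genes and the highest for 1. *Cdh5* had 125 reads in GB-IL 2 and 372 to 562 in DIO. The share of all tested genes that were lowest in GB-IL 2 is not given here.

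Some markers of other cells were also higher in GB-IL livers, where 3.15% of all tested genes were called higher than in DIO. The summed level of 10 genes of recruited macrophages and monocytes was 29.99 to 49.7 CPM in DIO and 49.7 to 415 in GB-IL, where GB-IL 4 was level with the highest DIO liver, and 5 of these genes (*Itgam*, *Cd68*, *Lgals3*, *Gpnmb* and *Trem2*) rose past the FDR. Over 10 Kupffer cell genes, those of the resident macrophages, the sum was 459 to 828 CPM in DIO and 728 to 2174 in GB-IL, and *Marco*, *C1qb* and *C1qc* were called higher. All 10 had a fitted change above 0, but GB-IL 1, at 728 CPM, lay within the DIO range. GB-IL 1 was the lowest of all livers for 5 of the 10 genes. *Clec4f*, picked from these after its values were seen, had 42.2 CPM there and 129 to 202 in DIO. For 6 neutrophil genes the sum was 5.29 to 10.3 CPM in DIO and 6.31 to 270.0 in GB-IL, with 4 of 5 tested genes called higher and *Ly6g* at 0 in every DIO liver. Genes of other liver cells were called higher as well. Fibroblasts and mesothelium summed to 6.30 to 12.6 CPM in DIO and 9.04 to 43.4 in GB-IL over 8 genes, of which *Pi16* was called higher. Over 5 cholangiocyte genes, those of bile duct cells, the sum was 4.73 to 10.5 CPM in DIO and 8.56 to 43.6 in GB-IL, and *Krt19* and *Krt7* were called higher. Of 8 stellate cell genes, *Des* was called higher, with 243 CPM in GB-IL 1 and 3.35 to 5.26 in DIO. GB-IL 2 to 4 had 12.7, 5.90 and 4.43 CPM of *Des*. The stellate list as such was not shifted: 4 of its 8 genes had a fitted change above 0, with a median log2 fold change of -0.024. Its sum was 216 to 334 CPM in DIO and 182 to 857 in GB-IL.

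Haematopoietic progenitors and some fibroblasts both carry *Cd34*. Of the haematopoietic progenitor genes, 0 of the 4 tested passed by edgeR (0 at an unadjusted p under 0.05). Their sum over 7 genes was 43.4 to 154 CPM in DIO and 39.1 to 96.7 in GB-IL, but *Hhex*, a factor that many cell types use, made up 78.2 to 93.1% of it in DIO. Without *Hhex* the sum of the other 6 genes was 9.47 to 12.5 CPM in DIO and 8.85 to 20.3 in GB-IL. *Gata2* had 4.25 CPM in GB-IL 1, above the 0.817 to 1.13 of the DIO livers, while the other GB-IL livers had at most 1.07. *Itga2b*, an integrin of platelets and their precursors, was above every DIO liver in 3 of 4 GB-IL livers. In the lists of B cells, T and NK cells, smooth muscle and hepatocytes, 0 genes passed by edgeR, with 0, 0, 0 and 2 genes at an unadjusted p under 0.05. GB-IL 4 had the lowest recruited macrophage and neutrophil sums of its group, at 49.7 and 6.31 CPM. It had 3.58 CPM of *Cd34*, above every DIO liver. Its Kupffer cell sum of 885 CPM and its fibroblast and mesothelium sum of 22.5 CPM were also above every DIO liver. GB-IL 1, with the most *Cd34*, had the highest recruited macrophage sum, 415 CPM. From highest to lowest, both *Cd34* and the fibroblast and mesothelium sum ran GB-IL 1, 3, 4 and 2. That sum went from 43.4 CPM in GB-IL 1 to 9.04 in GB-IL 2, which lay within the DIO range of 6.30 to 12.6. All 7 tested genes of that list had a fitted change above 0 in GB-IL against DIO. The part of these cells in the *Cd34* difference was not tested.

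*Plvap*, which encodes the protein of the diaphragms that close endothelial pores, did not follow *Cd34*. DIO livers 1 to 5 had 57.9, 38.4, 50.6, 58.3 and 51.4 CPM, and GB-IL livers 1 to 4 had 93.3, 62.3, 32.1 and 39.5. RYGB livers 1 to 5 had 75.7, 44.4, 48.97, 44.0 and 47.7 CPM. GB-IL 1 and 2 lay above the DIO livers, GB-IL 3 lay below them and GB-IL 4 lay within their range, and of the RYGB livers only RYGB 1 was above them. In GB-IL the log2 fold change was 0.15 (95% interval -0.44 to 0.73) and in RYGB 0.022 (-0.53 to 0.58), each against DIO, and the GB-IL value was -0.20 without GB-IL 1. *Plvap* overlaps *Gtpbp3* on the opposite strand, and since the strand setting of the counting is not given in the sources used here, reads of the pair cannot be told apart.

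**Figure D2:**
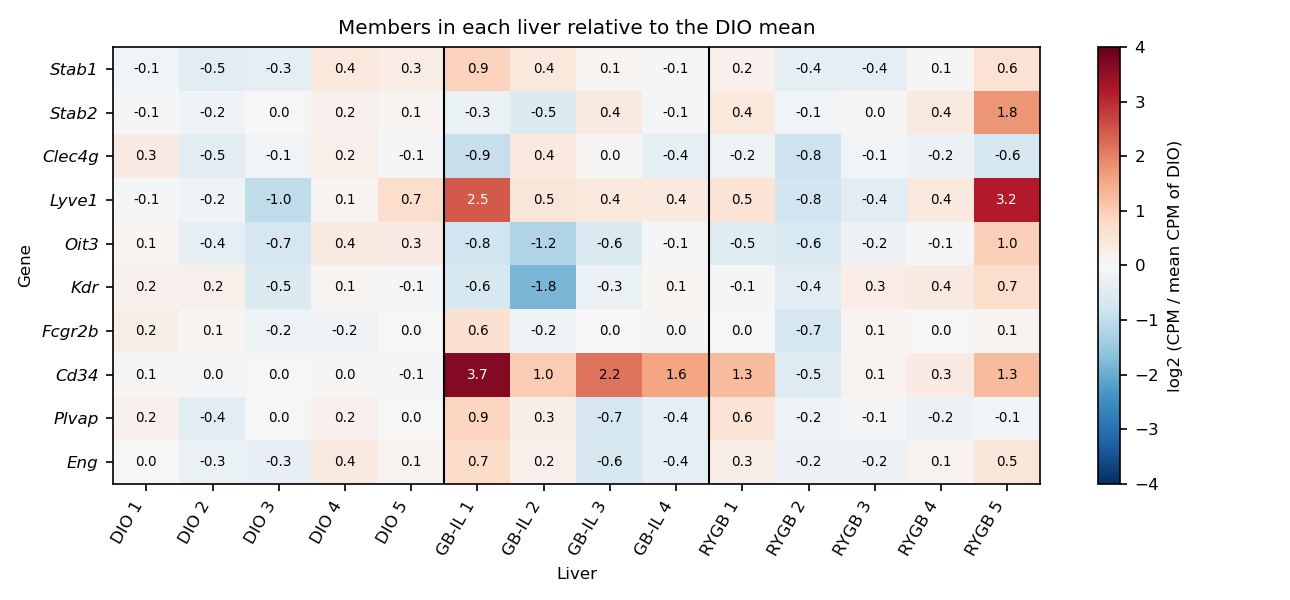
Log2 ratio of each liver's CPM to the mean CPM of the 5 DIO livers, by member (vertical) and liver (horizontal), with the value in each cell. *Cd34* is above 0 in all 4 GB-IL livers, and RYGB 5 is highest of its group for *Stab2*, *Lyve1* and *Oit3* but not for *Clec4g*.

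Among the scavenger receptors, *Stab1* and *Stab2* encode the large stabilin proteins that take up modified lipoproteins. For *Stab1*, DIO livers 1 to 5 had 49.6, 38.5, 41.6, 70.4 and 65.1 CPM, GB-IL livers 1 to 4 had 100.1, 70.5, 56.7 and 50.9, and RYGB livers 1 to 5 had 59.5, 40.4, 40.4, 54.9 and 78.6. GB-IL 1 and RYGB 5 were above every DIO liver and GB-IL 2 was level with the highest of them, while the rest overlapped. The log2 fold change of *Stab1*, which macrophages express as well, was 0.39 in GB-IL (95% interval -0.16 to 0.94) and 0.047 in RYGB (-0.48 to 0.57), each against DIO. The GB-IL value was 0.16 without GB-IL 1 and 0.039 by voom. *Stab1* overlaps *Nt5dc2* on the opposite strand.

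*Stab2*, the more restricted stabilin, varied little in obese mice without surgery, where DIO livers 1 to 5 had 50.8, 48.4, 53.0, 60.5 and 56.2 CPM. GB-IL livers 1 to 4 had 44.5, 37.0, 69.3 and 50.8, and RYGB livers 1 to 5 had 72.2, 50.2, 55.3, 68.9 and 185. Of the GB-IL livers, 2 lay below and 1 above the DIO range, RYGB 1 and 4 were above it, and RYGB 5 stood far above all others. In RYGB the log2 fold change against DIO was 0.68 ± 0.310 (SE), with a 95% interval from 0.021 to 1.34. It had the smallest p of the members in that comparison, 0.0440 unadjusted and 0.564 after Benjamini-Hochberg adjustment of edgeR's quasi-likelihood p-values. Without RYGB 5 the log2 fold change was 0.21, and the RYGB mean went from 86.3 ± 55.8 CPM (SD, n = 5) to 61.7 ± 10.6 (n = 4), beside 53.8 ± 4.74 in DIO (n = 5).

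*Lyve1*, a hyaluronan receptor of sinusoids, lymphatic vessels and some macrophages, was dominated by 1 liver in each surgical group. DIO livers 1 to 5 had 8.58, 8.02, 4.48, 9.79 and 14.7 CPM, GB-IL livers 1 to 4 had 50.3, 12.9, 12.3 and 11.95, and RYGB livers 1 to 5 had 13.2, 5.33, 6.83, 12.04 and 81.3. Apart from GB-IL 1 and RYGB 5, every operated liver was below the highest DIO liver. Against DIO, the log2 fold change of *Lyve1* was 1.26 in GB-IL (95% interval -0.28 to 2.80) and 1.38 in RYGB (-0.093 to 2.86). Without GB-IL 1 the former was 0.43, and without RYGB 5 the latter was 0.046. Of the lymphatic markers, *Pdpn* was called higher in GB-IL. The summed level of the 4 lymphatic genes was 35.8 to 59.9 CPM in DIO, 23.7 to 59.0 in GB-IL and 58.1 to 88.3 in RYGB, but *Reln*, which is also a stellate cell gene, made up 95.02 to 99.3% of it in DIO. The other 3 genes summed to 0.394 to 1.78 CPM in DIO, 1.30 to 10.3 in GB-IL and 0.690 to 2.24 in RYGB. In GB-IL 1, *Pdpn* had 4.94 CPM and *Mmrn1* 4.10, against at most 0.453 and 0.458 in DIO. The part of lymphatic vessels in *Lyve1* was not tested.

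*Clec4g* encodes a C-type lectin of the sinusoids, and *Oit3* encodes a secreted protein with a zona pellucida domain. For *Clec4g*, DIO livers 1 to 5 had 73.7, 43.1, 55.1, 67.9 and 56.9 CPM, GB-IL livers 1 to 4 had 31.5, 78.4, 61.4 and 45.3, and RYGB livers 1 to 5 had 51.6, 33.7, 55.4, 50.2 and 37.8. GB-IL 1 was the lowest liver of all and GB-IL 2 the highest. Against DIO, the log2 fold change of *Clec4g* was -0.13 in GB-IL (95% interval -0.66 to 0.40) and -0.37 in RYGB (-0.88 to 0.13). RYGB 2 and 5 lay below every DIO liver, and relative to the pan-endothelial sum *Clec4g* was 16.4 to 24.9% in DIO but 6.10% in RYGB 5 and 6.25% in GB-IL 1. In these 2 livers the pan-endothelial sum was the highest of the 14, at 620.1 and 504 CPM, so both parts of that ratio differed.

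For *Oit3*, DIO livers 1 to 5 had 30.1, 21.6, 17.6, 36.7 and 35.7 CPM, GB-IL livers 1 to 4 had 16.2, 12.2, 19.1 and 26.8, and RYGB livers 1 to 5 had 20.2, 18.7, 24.0, 26.6 and 54.8. GB-IL 1 and 2 lay below every DIO liver, and RYGB 5 lay above all others. The log2 fold change against DIO was -0.61 ± 0.334 (SE) in GB-IL, with a 95% interval from -1.32 to 0.11 and a Benjamini-Hochberg adjusted p of 0.277 from the edgeR quasi-likelihood fit. It stayed negative in all 22 alternatives, between -0.85 and -0.44, and passed the FDR in 0 of them. In RYGB it was 0.027 with RYGB 5 and -0.33 without it.

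*Fcgr2b*, the inhibitory Fc receptor that clears small immune complexes in sinusoids and is also found on B cells and macrophages, had group means of 32.3 ± 4.14 CPM in DIO (SD, n = 5), 35.9 ± 9.02 in GB-IL (n = 4) and 30.8 ± 6.19 in RYGB (n = 5). DIO livers 1 to 5 had 38.4, 34.1, 28.1, 29.03 and 32.0 CPM, GB-IL livers 1 to 4 had 49.2, 28.9, 32.3 and 33.3, and RYGB livers 1 to 5 had 32.3, 20.1, 35.2, 31.6 and 34.8. Only GB-IL 1 was above and only RYGB 2 was below the DIO range. Compared with DIO, the log2 fold change of *Fcgr2b* was 0.15 in GB-IL (95% interval -0.26 to 0.57) and -0.069 in RYGB (-0.46 to 0.32), intervals that leave room for moderate changes in either direction. Other Fc receptor genes resemble *Fcgr2b* in sequence, and how shared reads were assigned is not given in the sources used here.

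*Kdr* and *Eng* encode receptors that keep vessels alive and quiet: *Kdr* is the main receptor for VEGF, and *Eng* is endoglin, a co-receptor for BMP9. For *Kdr*, DIO livers 1 to 5 had 41.0, 41.4, 24.9, 39.0 and 33.9 CPM, GB-IL livers 1 to 4 had 23.1, 10.1, 30.2 and 38.4, and RYGB livers 1 to 5 had 34.5, 26.6, 44.6, 46.5 and 59.1. GB-IL 1 and 2 were below every DIO liver, while RYGB 3, 4 and 5 were above every one. The log2 fold change against DIO was -0.50 ± 0.318 (SE; 95% interval -1.18 to 0.18) in GB-IL and 0.23 ± 0.296 (-0.40 to 0.86) in RYGB, and the GB-IL value was -0.25 without GB-IL 2 and -0.78 without GB-IL 4. Neither passed, with Benjamini-Hochberg adjusted p-values of 0.335 and 0.863 from the edgeR quasi-likelihood fit.

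For *Eng*, DIO livers 1 to 5 had 73.0, 62.2, 58.6, 95.2 and 81.0 CPM, GB-IL livers 1 to 4 had 122, 84.3, 47.8 and 56.7, and RYGB livers 1 to 5 had 89.9, 62.9, 62.3, 81.6 and 104. GB-IL livers lay on both sides of the DIO range, as they did for *Plvap*, and RYGB 5 was above it. Against DIO, the log2 fold change of *Eng* was 0.070 in GB-IL (95% interval -0.49 to 0.63) and 0.11 in RYGB (-0.42 to 0.64), and in GB-IL it was -0.24 without GB-IL 1. *Eng* overlaps *Fpgs* on the opposite strand.

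**Figure D3:**
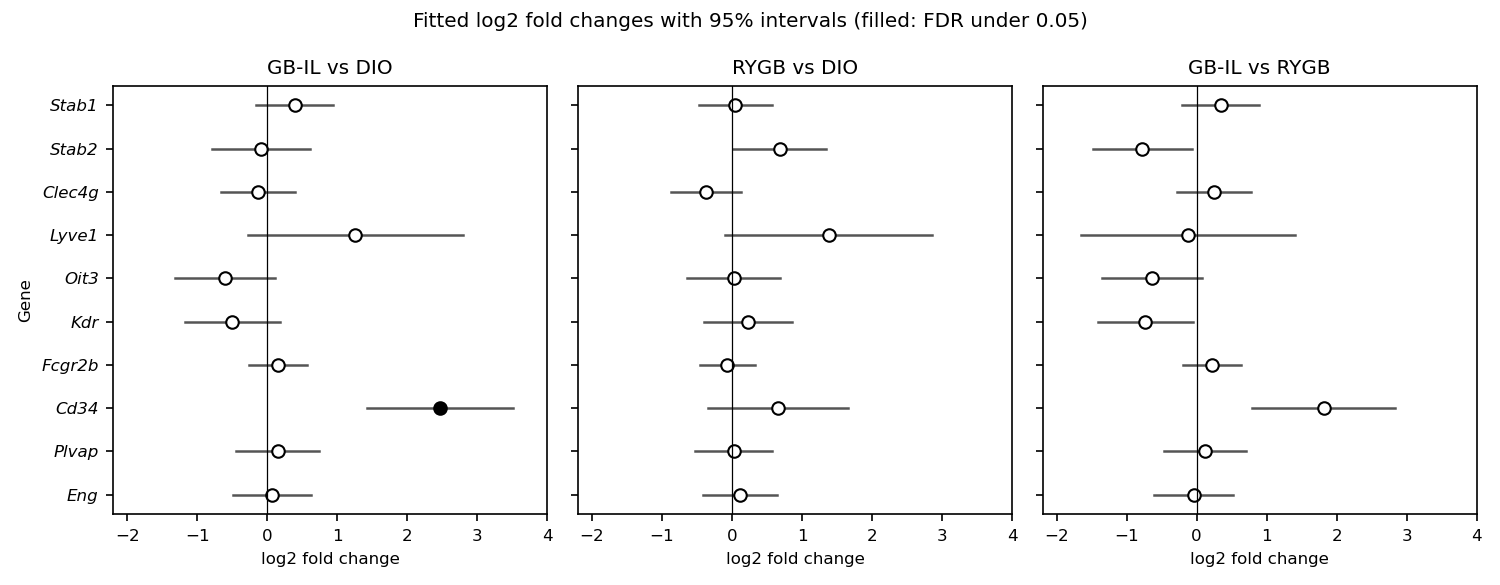
Fitted log2 fold change (point) and 95% interval (line) of each member in the 3 comparisons, with filled points for an adjusted p under 0.05. *Cd34* in GB-IL against DIO, at 2.47, is the filled point.

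RYGB mice differed from DIO mice in 0 of the 10 members in the edgeR quasi-likelihood fit, in DESeq2 and in voom with quality weights. At an unadjusted p under 0.05 there was 1, *Stab2*, beside 8.71% of all genes. Of all 14252 genes, 0% were called by edgeR (1241 had an unadjusted p under 0.05), while DESeq2 called 97 and voom 1690. The median log2 fold change of the members was 0.081, beside 0.012 over all genes, and 8 of 10 lay above 0, which became 6 of 10 without RYGB 5.

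Between the surgical groups, 0 of the 10 members passed in the edgeR quasi-likelihood fit, as did 0% of all genes (3147 had an unadjusted p under 0.05, which is 22.1%), while DESeq2 and voom each called 1 member, *Cd34*. At an unadjusted p under 0.05 there were 3 members. *Cd34* was higher in GB-IL than in RYGB by a log2 fold change of 1.81 ± 0.476 (SE; 95% interval 0.80 to 2.83), with an adjusted p of 0.0881 by edgeR and Benjamini-Hochberg adjustment. Without GB-IL 1 this was 0.99. *Kdr* was lower in GB-IL than in RYGB by a fitted log2 difference of -0.73 (95% interval -1.41 to -0.051), and *Stab2* by -0.77 (-1.48 to -0.066), with adjusted p-values of 0.204 and 0.197 by the same test. The *Stab2* value was -0.31 without RYGB 5 and -0.19 by voom, and the *Kdr* value was -0.48 without GB-IL 2. Without GB-IL 4, the liver that resembled the DIO livers, edgeR called 2 members, *Cd34* higher and *Kdr* lower, *Kdr* with a log2 difference of -1.01 and an adjusted p of 0.0426 after Benjamini-Hochberg adjustment. The same comparison without GB-IL 4 called 3120 genes in all.

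The members did not vary as 1 block over the 14 livers. On log2(CPM + 1), Pearson's r between members was highest for *Stab1* and *Lyve1* (0.83), *Oit3* and *Kdr* (0.81), and *Stab1* and *Eng* (0.81), and lowest for *Clec4g* and *Lyve1* (-0.40). Without RYGB 5 these were 0.88, 0.77, 0.78 and -0.27. *Plvap* and *Eng* (0.88) and *Lyve1* and *Cd34* (0.84) were then among the highest, and *Oit3* and *Cd34* (-0.41) were the lowest. Values without GB-IL 1 are not given. All of these values rest on libraries of the same 14 livers, groups mixed, and they are given as a description. The genes most like *Cd34* across all tested genes were *Plxdc2* (0.97), *Mxd1* (0.95) and *Srgn* (0.94), which became 0.86, 0.82 and 0.70 without GB-IL 1 and 3. For *Stab2* they were *Plxnd1* (0.93), *Ccdc8* (0.93) and *Zc3h13* (0.93), falling to 0.79, 0.71 and 0.59 without RYGB 5 and GB-IL 2. *Plvap* was closest to *Ccm2l* (0.90), *Slc52a3* (0.89) and *Coq10a* (0.88), and *Clec4g* to *Mterfd2*, *Ppil2* and *Znrd1* (each 0.86).

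**Figure D4:**
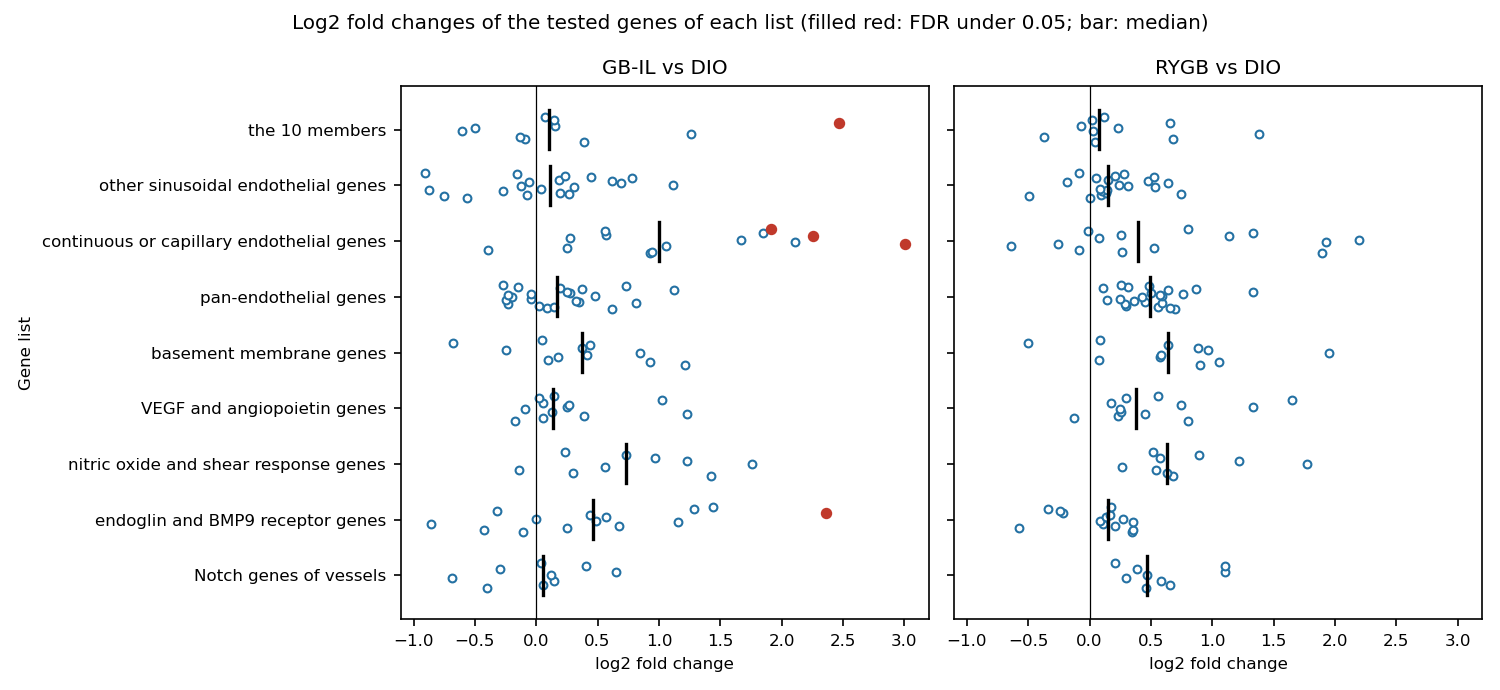
Log2 fold changes against DIO of the tested genes of the 10 members and of 8 related gene lists, with a bar at each median and filled red points for an adjusted p under 0.05. In GB-IL the list of continuous or capillary genes has the highest median, 1.00, with 3 genes past the FDR, and in RYGB all 22 pan-endothelial genes lie above 0.

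The other genes by which sinusoidal and ordinary capillaries are told apart were read from gene lists. Of 20 further sinusoidal genes tested (*Dnase1l3*, *Ehd3*, *Gata4*, *Wnt2* and others), 0 passed in GB-IL by edgeR, with 4 at an unadjusted p under 0.05 and 1 called lower by DESeq2 and by voom, and their median log2 fold change was 0.11. *Gata4*, the factor that specifies sinusoidal endothelium and is also expressed by stellate cells, had 12.3, 5.196, 6.23 and 9.63 CPM in GB-IL 1 to 4 against 11.4 to 19.3 in DIO. Its log2 fold change was -0.88 ± 0.243 (SE), with a Benjamini-Hochberg adjusted p of 0.0610 from the edgeR quasi-likelihood fit, and 3 of the 4 livers were below every DIO liver.

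Of 14 tested genes of continuous or capillary endothelium, 3 rose in GB-IL and 0 fell, beside 3.15% and 0.112% of all tested genes. A fitted change above 0 was found for 13 of the 14, with a median log2 fold change of 1.00, beside 0.039 over all genes. Without GB-IL 1 these medians were 0.66 and 0.018. *Icam1*, a leukocyte adhesion molecule that many cell types induce, had a log2 fold change of 1.92. *Emp1*, a membrane protein of many epithelia as well, had 2.26, and *Ly6c1* had 3.00. Their Benjamini-Hochberg adjusted p-values from the edgeR quasi-likelihood fit were 0.0316, 0.0365 and 0.0468. All 3 calls were lost without GB-IL 1, where the log2 fold changes were 1.24, 1.66 and 1.48, and also without GB-IL 2. Without any 1 DIO liver no gene of the whole table was called. DESeq2 called 4 genes of this list and voom 2, and none of the 3 is restricted to endothelium. Of 22 pan-endothelial genes 0 passed by edgeR in GB-IL, 1 at an unadjusted p under 0.05 and 1 by DESeq2, and the median of 0.17 was -0.089 without GB-IL 1. Of 11 basement membrane genes 0 passed by edgeR, with 2 at an unadjusted p under 0.05 and 1 by DESeq2. *Col4a1*, which encodes a type IV collagen chain, was above every DIO liver in 4 of 4 GB-IL livers, as were 2.67% of all tested genes. Its log2 fold change was 1.21, with a Benjamini-Hochberg adjusted p of 0.0813 from the edgeR quasi-likelihood fit.

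Among the signalling partners of *Kdr* and *Eng*, 1 gene passed the test in GB-IL, where 3.15% of all tested genes were called higher than in DIO. Of 12 VEGF and angiopoietin genes, 9 nitric oxide and shear response genes and 9 Notch genes, 0 passed by edgeR in GB-IL. At an unadjusted p under 0.05 there were 1, 3 and 0, beside 3297 of all 14252 genes. Of 14 genes around endoglin and BMP9, 1 rose: *Id1*, a target of BMP receptors in many cell types, with a log2 fold change of 2.37 and a Benjamini-Hochberg adjusted p of 0.0474 from the edgeR quasi-likelihood fit. GB-IL 1 had 44.3 CPM of *Id1* and the other GB-IL livers had 3.22 to 10.5, beside 1.48 to 5.29 in DIO. Without GB-IL 1 its log2 fold change was 1.13 and it did not pass. DESeq2 called 2 genes of this list and voom 0.

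In RYGB, 0 genes of these 8 lists passed by edgeR, with 1 to 6 genes per list at an unadjusted p under 0.05 except for the endoglin list with 0. The share of all genes at that p was 8.71%. DESeq2 called 1 gene, *Fabp4*, higher, and voom called 1 to 3 genes higher in 6 of the 8 lists, among them *Col4a2*, *Hes1*, *Smad5* and *Gucy1b3*. Among all 14252 genes, DESeq2 called 64 higher and voom 867. All 22 pan-endothelial genes had a fitted change above 0 against DIO, with a median log2 fold change of 0.49, and without RYGB 5 it was 20 of 22 and 0.27. *Flt1*, a receptor that binds VEGF alongside *Kdr*, was named because it had the smallest p of this list. It was above every DIO liver in 5 of 5 RYGB livers (14.2 to 64.8 CPM, against 7.79 to 11.5). The share of all tested genes with such a separation in RYGB is not given here. The log2 fold change of *Flt1* was 1.33, with a Benjamini-Hochberg adjusted p of 0.422 from the edgeR quasi-likelihood fit. Without RYGB 5 it was 0.64.

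Many vessel genes were higher in RYGB 5 than in the rest of its group. It was the highest of all 14 livers for 14 of 22 pan-endothelial genes, 7 of 11 basement membrane genes, 7 of 9 Notch genes and 6 of 12 VEGF and angiopoietin genes, beside 4 of the 10 members (*Stab2*, *Lyve1*, *Oit3* and *Kdr*) and 8.80% of all tested genes. For the other lists it was 5 of 14 continuous or capillary genes, 5 of 20 further sinusoidal genes, 2 of 9 nitric oxide and shear response genes and 0 of 14 genes around endoglin. *Vwf*, which encodes a clotting factor stored in endothelium, had 110.3 CPM there and 6.20 to 29.9 in the other livers, and *Nid1*, a basement membrane linker, had 133 CPM there and 7.48 to 24.95 elsewhere. The genes *Apln*, *Angpt2* and *Esm1*, known from sprouting vessels and picked here after their values were seen, had 16.7, 8.17 and 8.69 CPM in RYGB 5. Elsewhere *Apln* stayed at 0 to 3 reads a liver against 481 reads in RYGB 5, *Angpt2* at 0.523 to 1.98 CPM and *Esm1* at 0.148 to 4.18 CPM. *Clec4g* and *Plvap* in this liver, at 37.8 and 47.7 CPM, were not above the range of the DIO livers. Its summed recruited macrophage genes were 114 CPM, beside 43.2 to 72.4 in the other RYGB livers, and its summed neutrophil genes 74.2 CPM beside 7.003 to 12.5, and their part in the vessel genes was not tested.

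**Figure D5:**
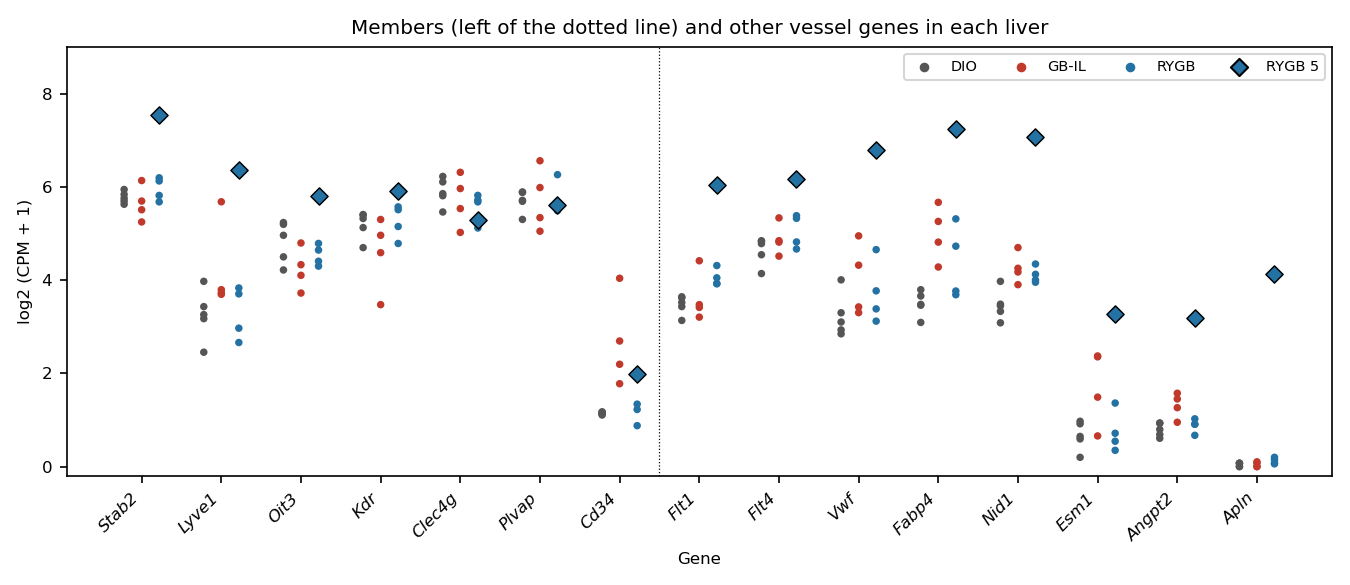
Log2(CPM + 1) of 7 members (left of the dotted line) and 8 other vessel genes, 1 point per liver, with RYGB 5 as a diamond. RYGB 5 is the highest point for every gene shown except *Clec4g*, *Plvap* and *Cd34*. The 8 other vessel genes are a selection made with the results known, and they do not stand for the full lists. There RYGB 5 was highest for 14 of 22 pan-endothelial genes and 7 of 11 basement membrane genes. It was highest for 5 of 14 continuous or capillary genes, 5 of 20 further sinusoidal genes and 0 of 14 genes around endoglin.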

How the data were processed

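Liver RNA of 14 mice was sequenced with 1 library per liver. The values are counts of reads per gene, which the authors deposited without normalization after alignment to mm10 with TopHat 2 and counting with HTSeq. Tool versions, gene annotation and strandedness of the counting were not given in the sources used here. Amplified total RNA is described in the paper, and the labels name 2 stranded library kits but not which liver had which, so no model could include the kit. Counts were tested in R 4.3.3 with edgeR 4.0.16: genes kept by filterByExpr, TMM scaling, a quasi-likelihood fit of all 14 livers with a mean per group, and Benjamini-Hochberg adjustment over 14252 genes at an FDR of 0.05. The alternatives used RLE scaling, DESeq2 1.42.0, limma 3.58.1 (voom with sample quality weights), other filters on low counts, a fit of just the pair of groups compared, a block for the replicate number, and each liver left out. Python 3.11.15 with numpy 2.4.6, pandas 2.3.3, scipy 1.17.1 and matplotlib 3.10.9 gave the summaries. Positions and exon lengths are those of GENCODE M21 on GRCm38, to which 24701 of 25212 identifiers matched. Nothing in the labels ties replicate numbers to a litter or day, and samples sharing a number did not vary together. Replicates were separate mice. All pairs within a group differed beyond sampling noise (chi-square per degree of freedom 25.9 or more).

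All members were described. List genes could be named when they passed the FDR or were among the 2 with the smallest p of their list in a comparison with DIO. Genes most alike in pattern were sought for 4 members by Pearson's r on log2(CPM + 1). Members and lists were chosen with earlier results of these data known, so their patterns are not independent support of one another.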

Additional observations from a re-analysis of the deposited data

Results flagged for a closer look

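Of 30 groups of livers (10 members in 3 groups), 6 had a liver far from the others by Dixon's ratio, a measure that picks about 1 in 20 groups by chance. In 3 of the 6 the liver was RYGB 5: *Stab2* at 185 CPM, with 50.2 to 72.2 in the other RYGB livers, *Lyve1* at 81.3 CPM, with 5.33 to 13.2 in the others, and *Oit3* at 54.8 CPM, with 18.7 to 26.6 in the others. *Lyve1* in GB-IL 1 was 50.3 CPM, with 11.95 to 12.9 in the other GB-IL livers. *Fcgr2b* in RYGB 2 was 20.1 CPM, below the 31.6 to 35.2 of the others, and *Plvap* in RYGB 1 was 75.7 CPM, above the 44.0 to 48.97 of the others.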

How the results depend on the processing

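*Cd34* kept its direction in all 22 alternatives of all 3 comparisons. Against the 465 genes called between GB-IL and DIO, DESeq2 called 1292, the fit of 2 groups 0, the replicate block 1, and the fit without both GB-IL 1 and RYGB 5, which was chosen after seeing the data, 67. With single livers left out the count ran from 0 to 3572. Of the members, 1 was called, and 0 by the 2-group fit, the replicate block and the fit without both livers, and 0 to 1 with single livers left out. Between GB-IL and RYGB no gene was called by edgeR, but 845 by DESeq2, 115 by voom and 51 without a filter, with 0 to 3120 when single livers were left out, and members called were 0, but 1 by DESeq2, 1 by voom and 0 to 2 with single livers left out. Between RYGB and DIO the edgeR count was 0, but 97 by DESeq2, 1690 by voom, 33 with 2 groups and 0 to 5 with single livers left out. The replicate block changed no other call of a member, and the same-number livers' deviations correlated between -0.43 and 0.40 over 13 pairs, with 1 of 14 livers closest to its own number.

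Signs turned only for changes that had not passed. Against DIO in GB-IL, voom gave *Eng* -0.43, *Plvap* -0.38, *Stab2* 0.042 and *Nos3* -0.18, and the replicate block gave *Stab2* 0.039. In RYGB against DIO, voom gave *Eng* -0.097, *Lyve1* -0.042, *Oit3* -0.35, *Plvap* -0.11 and *Stab1* -0.26, and the replicate block gave *Oit3* -0.048 and *Plvap* -0.016. Between GB-IL and RYGB, voom gave *Lyve1* 0.44 and *Plvap* -0.27, and the replicate block gave *Lyve1* 0.83. Without both GB-IL 1 and RYGB 5, GB-IL against DIO gave *Clec4g* 0.059, *Eng* -0.23, *Fcgr2b* -0.034 and *Plvap* -0.20, RYGB against DIO gave *Oit3* -0.34 and *Stab1* -0.12, and GB-IL against RYGB gave *Lyve1* 0.40 and *Plvap* -0.25. Single livers also turned signs. Leaving out each liver in turn, GB-IL against DIO ranged over -0.38 to 0.051 for *Clec4g*, -0.24 to 0.24 for *Eng*, -0.044 to 0.23 for *Fcgr2b*, -0.20 to 0.34 for *Plvap* and -0.29 to 0.013 for *Stab2*. Leaving out each liver in turn, GB-IL against RYGB ranged over -0.0072 to 0.43 for *Clec4g*, -0.35 to 0.13 for *Eng*, -0.96 to 1.22 for *Lyve1* and -0.23 to 0.32 for *Plvap*. Leaving out each liver in turn, RYGB against DIO ranged over -0.12 to 0.055 for *Fcgr2b*, -0.33 to 0.15 for *Oit3*, -0.15 to 0.079 for *Plvap* and -0.11 to 0.17 for *Stab1*. The cause was not tested. DIO livers had 22 to 24 reads of *Cd34*, and the counting interval of GB-IL 2 overlapped those of DIO 1, 3 and 4. Overlap of intervals is not a test, and GB-IL 2 alone was not tested against the DIO livers.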
